A study of Rattus norvegicus with 8 samples.

Results

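The 6 genes described here are 2 neurotrophins (Bdnf and Ntf3), 2 Trk receptors (Ntrk2 and Ntrk3), the pan-neurotrophin receptor Ngfr and the sorting receptor Sort1. They were taken from the authors' deposited table by gene symbol, out of 19721 genes named there by a single symbol, and each had 1 probe set, so no choice between probe sets arose. The arrays hold RNA of bilateral 1 mm3 cryostat punches from the dorsal hippocampus of young adult male Sprague-Dawley rats that were themselves drug-naive. The nicotine-sired group is 4 arrays of sons whose fathers had taken nicotine intravenously by self-administration over 60 days at 0.03 mg/kg; the saline-sired group is 4 arrays of sons of fathers yoked to them and given saline. Each array is 1 litter of 1 father, and the labels set the groups apart by the father's drug alone, so the comparison asks whether neurotrophin genes in untreated sons differ with it.

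Neurotrophins are secreted growth factors of neurons, made as precursors that are cut to their mature form. Mature BDNF acts through TrkB (the product of Ntrk2) and neurotrophin-3 mainly through TrkC (Ntrk3), both receptor tyrosine kinases that signal through Ras and MAP kinases, PI3 kinase and phospholipase C gamma. The precursors bind p75 (Ngfr) together with sortilin (Sort1) and can drive the opposite outcomes, loss of synaptic strength or cell death. In the rodent hippocampus Bdnf is transcribed in neurons in an activity-dependent way and is abundant in dentate granule and CA3 pyramidal cells, Ntf3 is concentrated in dentate granule cells, and astrocytes make mostly a truncated TrkB without the kinase.

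Bdnf is transcribed from several promoters, each with its own leader exon joined to a shared coding exon, whereas the array holds a single Bdnf probe set; which start a Bdnf signal comes from was therefore not measured. RefSeq windows of GRCr8, from 250 bases before to 50 after an annotated start, matched 3 of the 6 genes, with 6 windows for Bdnf, 3 for Ntf3 and 1 for Sort1. Windows 2 and 4 of Bdnf (chr3:116620585-116620884 and chr3:116637608-116637907, plus strand) are shown because they hold the only matches found among the 10 windows, and window 3 of Ntf3 (chr4:160668858-160669157, minus strand) for comparison, being the gene's most separate start. Capitals mark the E-box CACGTG, read by USF and other basic helix-loop-helix factors, in Bdnf window 2 and the core TGACG of the cAMP response element, on the strand opposite to the one printed, in Bdnf window 4.
Bdnf window 2: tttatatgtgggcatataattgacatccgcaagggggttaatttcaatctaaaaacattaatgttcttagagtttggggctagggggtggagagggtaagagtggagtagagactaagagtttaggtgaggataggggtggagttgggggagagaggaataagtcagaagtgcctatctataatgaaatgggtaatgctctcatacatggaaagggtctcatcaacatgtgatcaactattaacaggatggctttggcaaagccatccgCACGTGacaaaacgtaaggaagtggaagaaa
Bdnf window 4: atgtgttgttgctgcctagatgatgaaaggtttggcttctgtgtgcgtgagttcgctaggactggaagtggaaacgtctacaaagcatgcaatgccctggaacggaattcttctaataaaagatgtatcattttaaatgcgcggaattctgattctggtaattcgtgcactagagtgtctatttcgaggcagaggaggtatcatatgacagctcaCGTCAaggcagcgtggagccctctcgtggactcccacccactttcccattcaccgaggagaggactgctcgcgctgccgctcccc
Ntf3 window 3: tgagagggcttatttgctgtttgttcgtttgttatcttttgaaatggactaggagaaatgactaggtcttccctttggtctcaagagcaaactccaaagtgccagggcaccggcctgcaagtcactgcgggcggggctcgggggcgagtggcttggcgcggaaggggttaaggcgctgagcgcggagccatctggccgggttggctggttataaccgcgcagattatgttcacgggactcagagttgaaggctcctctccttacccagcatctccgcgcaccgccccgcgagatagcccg
Motifs were searched on both strands, and a match to the core inside a full site would count for both. The E-box is found in 6.42% and the core in 21.2% of the 33469 RefSeq windows of this length, and the full cAMP response element TGACGTCA in 1.83% of them and in 0 of the 10 windows of these genes. A match describes the letters only.

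Values are log2 signals, 1 unit being a doubling, and are compared between groups and not between genes, since probes of different genes differ in brightness. Median signal of the gene classes was 6.25 to 6.35 on the 8 arrays, and that of the antigenomic background probes 4.32 to 4.53. The limma test covered the 15161 probe sets whose mean over the arrays was above 6.30, the median of the gene classes, and p-values were adjusted over all of them (Benjamini-Hochberg); a gene is called at an adjusted p under 0.05. All 6 genes were above this filter. The median of the tested probe sets was 8.39 to 8.43 on nicotine-sired and 8.32 to 8.41 on saline-sired arrays. Defining markers of the tissue were also mostly above it, with 12 of 15 measured dentate, 13 of 16 CA2 and CA3 and 10 of 11 CA1 markers. Nicotine-sired 4 stood apart in the mean of 7 choroid plexus markers, at 10.35 there, 6.13 to 6.18 on the other nicotine-sired arrays and 6.03 to 7.41 on saline-sired arrays.

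None of the 6 genes was called by limma (0 of 6, where 2.06% of all tested probe sets were called). At an unadjusted p under 0.05 there were 3 of 6, Bdnf, Ntrk2 and Ntrk3, in a fit where 24% of all tested probe sets reached it. The groups overlapped in all 6 genes, as they did in all but 14.3% of tested probe sets. The largest differences were those of both neurotrophins, which averaged 0.669 (Bdnf) and 0.689 (Ntf3) times their saline-sired signal in nicotine-sired sons, while the differences of the 4 receptor genes were within 0.19 log2 units. The median of the absolute difference over all tested probe sets was 0.12, and 3.77% of them differed by more than Bdnf.

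**Figure D1:**
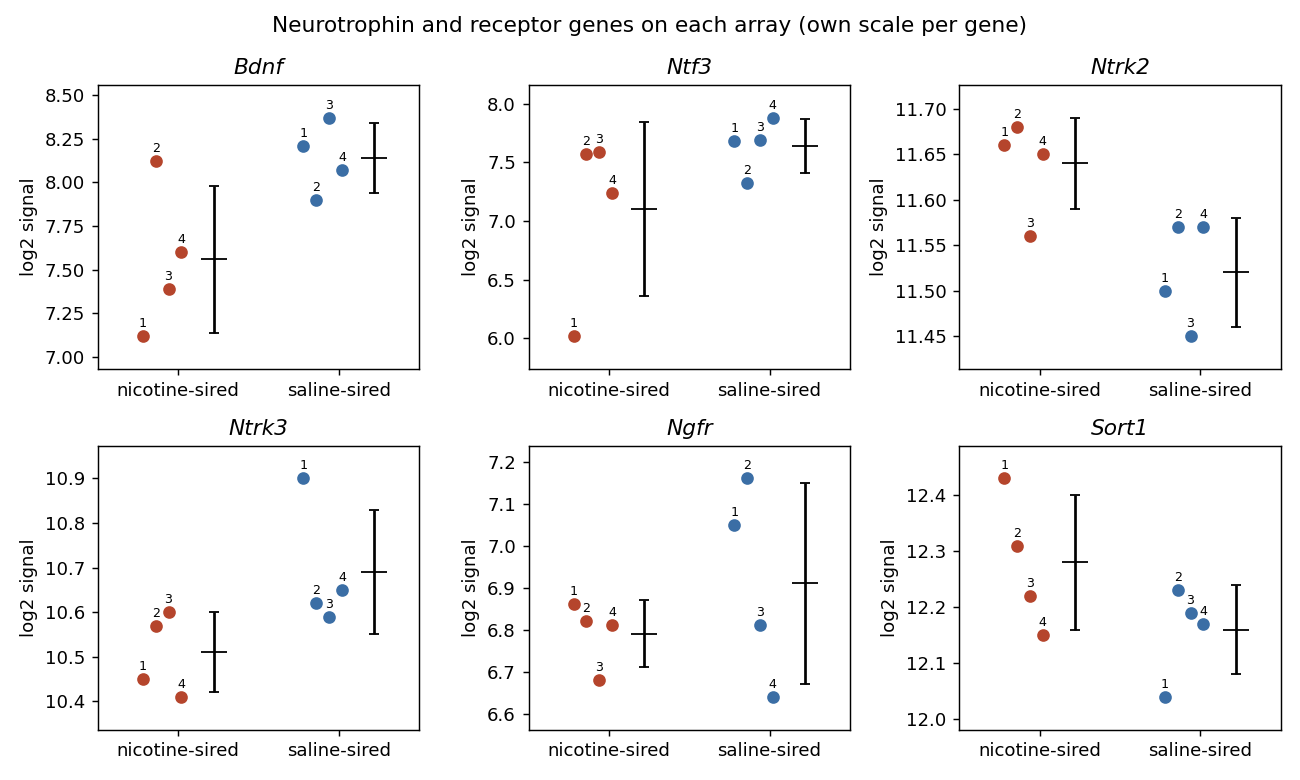
Log2 signal (vertical axis, own scale for each gene) of the 6 genes on each array, numbered by litter, nicotine-sired in red and saline-sired in blue; the black mark is the group mean with its SD (n = 4). All but 1 of the 4 nicotine-sired values of Bdnf lie below every saline-sired value and nicotine-sired 2, at 8.12, lies among them; nicotine-sired 1 is the lowest array for Bdnf and Ntf3 and the highest for Sort1.

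Among the ligands, Bdnf read 7.12, 8.12, 7.39 and 7.60 log2 units on nicotine-sired arrays 1 to 4, against 8.21, 7.90, 8.37 and 8.07 on saline-sired arrays 1 to 4. Arrays 1, 3 and 4 of the nicotine-sired group were below all saline-sired arrays, and array 2 was above 2 of them. The means were 7.56 ± 0.42 and 8.14 ± 0.20 (SD, n = 4 each), a difference of -0.58 ± 0.20 (SE; 95% interval -1.02 to -0.14), or 0.669 times the saline-sired signal. In limma the adjusted p was 0.121 (unadjusted 0.0147), and 12.2% of the tested probe sets ranked at or before it by p. An exact permutation test (two-sided, all 70 ways to split the arrays 4 and 4, smallest possible p 0.0286) gave p = 0.0857.

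The authors' deposited table gives Bdnf the same ratio, 0.669, with a p-value of 0.00232 and an adjusted p-value of 0.0491, under the threshold. That table calls 8.63% of the 15161 tested probe sets, and 3.81% of them as lower. Bdnf is the only one of the 6 genes called there, and which model gave those p-values was not stated. In limma with 1 array left out, Bdnf was called only without nicotine-sired 2, where it differed by -0.77 ± 0.15 (adjusted p = 0.0328). Nicotine-sired 2 is the highest nicotine-sired array for Bdnf, so leaving it out could only enlarge the difference. Calls over all tested probe sets also rose in that fit, from 313 to 672. With each of the other arrays left out the difference lay between -0.66 and -0.43 and the adjusted p between 0.134 and 0.249.

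Ntf3 read 6.02, 7.57, 7.59 and 7.24 on nicotine-sired arrays 1 to 4, against 7.68, 7.32, 7.69 and 7.88 on saline-sired arrays 1 to 4. Nicotine-sired 1 was far below all others and under the filter value of 6.30, nicotine-sired 4 was just below the lowest saline-sired array, and nicotine-sired 2 and 3 lay among the saline-sired ones. The means were 7.10 ± 0.74 and 7.64 ± 0.23 (SD, n = 4 each). The difference of -0.54 ± 0.32 (95% interval -1.24 to 0.17, adjusted p = 0.322, exact permutation p = 0.143) rested largely on that array: without nicotine-sired 1 it was -0.17 ± 0.14 (adjusted p = 0.542). In the authors' deposited table Ntf3 has a ratio of 0.689 and an adjusted p-value of 0.16.

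Ntf4, the other TrkB ligand, was under the filter, at 5.57 to 5.70 on nicotine-sired and 5.72 to 5.95 on saline-sired arrays. Its groups did not overlap at that dim level, and it differed by -0.17 ± 0.09 (adjusted p = 0.307 in the limma fit of all gene-class probe sets).

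Among the Trk receptors, Ntrk2 read 11.66, 11.68, 11.56 and 11.65 on nicotine-sired arrays 1 to 4, against 11.50, 11.57, 11.45 and 11.57 on saline-sired arrays 1 to 4. Nicotine-sired 1, 2 and 4 were above every saline-sired array. The difference was small, 0.12 ± 0.05 (95% interval 0.01 to 0.23, 1.09 times, adjusted p = 0.19 in limma, exact permutation p = 0.0857). With each array centred on the median of its tested probe sets it was 0.066 (adjusted p = 0.459). With 1 probe set for the gene, full-length and truncated TrkB transcripts were not told apart, and which of them its probes read was not examined.

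Ntrk3 read 10.45, 10.57, 10.60 and 10.41 on nicotine-sired arrays 1 to 4, against 10.90, 10.62, 10.59 and 10.65 on saline-sired arrays 1 to 4. Nicotine-sired 1, 2 and 4 were below all saline-sired ones, nicotine-sired 3 was level with saline-sired 3, and saline-sired 1 was the highest array. The difference was -0.19 ± 0.08 (95% interval -0.37 to -0.01, 0.879 times, adjusted p = 0.196 in limma, exact permutation p = 0.0571), and -0.12 without saline-sired 1 (adjusted p = 0.377).

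Ngfr, which in the adult hippocampus is carried mainly by axons of septal cholinergic neurons whose cell bodies lie elsewhere, was dim. It read 6.86, 6.82, 6.68 and 6.81 on nicotine-sired arrays 1 to 4, against 7.05, 7.16, 6.81 and 6.64 on saline-sired arrays 1 to 4. The saline-sired arrays spanned the whole range of the nicotine-sired ones. The difference of -0.12 ± 0.12 (95% interval -0.39 to 0.14) had an adjusted p of 0.556 in limma and an exact permutation p of 0.4. Leaving out saline-sired 2 gave -0.041, saline-sired 1 gave -0.075 and saline-sired 4 gave -0.21.

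Sort1 read 12.43, 12.31, 12.22 and 12.15 on nicotine-sired arrays 1 to 4, against 12.04, 12.23, 12.19 and 12.17 on saline-sired arrays 1 to 4. Nicotine-sired 1 and 2 were above all saline-sired arrays and the other arrays overlapped. The difference was 0.12 ± 0.07 (95% interval -0.03 to 0.27, adjusted p = 0.313, exact permutation p = 0.2), and it was 0.068 without nicotine-sired 1 and 0.067 with median-centred arrays. The authors' deposited table has adjusted p-values of 0.263 for Sort1, 0.104 for Ntrk2, 0.148 for Ntrk3 and 0.879 for Ngfr.

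**Figure D2:**
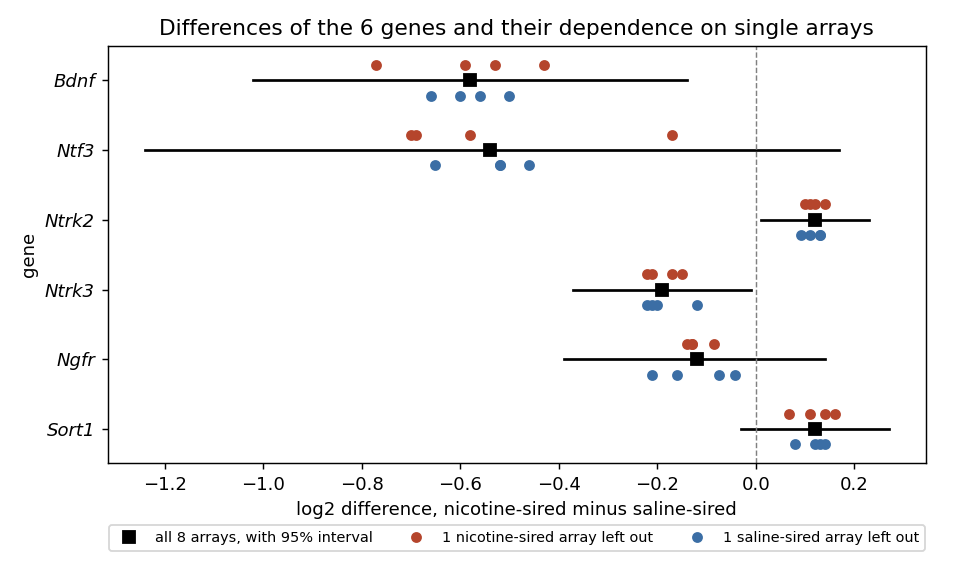
Log2 difference, nicotine-sired minus saline-sired (horizontal axis), of each gene (rows) from limma, as a black square with its 95% interval, and the same difference with 1 nicotine-sired (red) or 1 saline-sired array (blue) left out. Bdnf stays between -0.77 and -0.43, Ntf3 moves to -0.17 when nicotine-sired 1 is left out, and the receptor differences lie within 0.22 of 0 throughout.

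Both ligands were lowest on the array on which dentate markers were lowest. Beyond that array the orders differed. Nicotine-sired 2 was the next lowest array for dentate markers but the highest nicotine-sired array for Bdnf (8.12). Dentate markers were highest on saline-sired 1 (10.03), Bdnf on saline-sired 3 (8.37) and Ntf3 on saline-sired 4 (7.88). The mean log2 signal of the 12 dentate granule cell markers was 8.56, 9.22, 9.55 and 9.46 on nicotine-sired arrays 1 to 4, against 10.03, 9.43, 9.66 and 9.79 on saline-sired arrays 1 to 4. Of these markers 11 of 12 had a lower mean in nicotine-sired sons and 0 were called, with a median difference of -0.49, or -0.33 without nicotine-sired 1. Trpc6, a cation channel of granule cells, differed by -0.81 ± 0.24 (adjusted p = 0.0931) and Maml2, a Notch coactivator, by -0.42 ± 0.12 (adjusted p = 0.087). Fewer granule cells in a punch, whatever the reason, and less transcript per cell cannot be told apart. The part of these markers in the Bdnf and Ntf3 values was not tested.

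The mean of the 13 CA2 and CA3 markers was 8.21, 9.17, 8.72 and 9.03 on nicotine-sired arrays 1 to 4, against 8.90, 9.14, 9.11 and 9.08 on saline-sired arrays 1 to 4. Its order over the nicotine-sired arrays, lowest on 1, then 3, 4 and 2, was that of Bdnf, but its order over the saline-sired arrays was not: saline-sired 2 was the highest for these markers and the lowest for Bdnf. Their median difference was -0.03, with 1 called lower: Cpne9, a copine, fell by 0.58 ± 0.11 (adjusted p = 0.0345), while Rgs14, a CA2 regulator of G-protein signalling, differed by 0.69 ± 0.15 (adjusted p = 0.0537). The mean of the 10 CA1 markers ran the other way, at 8.94 to 10.68 on nicotine-sired arrays and 7.57 to 8.94 on saline-sired ones. All 10 had a higher mean (median 1.67) and 1 was called, Dcn, the proteoglycan decorin of CA1 neurons and fibroblasts, which rose by 2.11 ± 0.41 (adjusted p = 0.0398). Ndst4, a heparan sulphate enzyme, differed by 2.05 ± 0.50 (adjusted p = 0.0642). The part of either list in the ligand values was not tested.

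**Figure D3:**
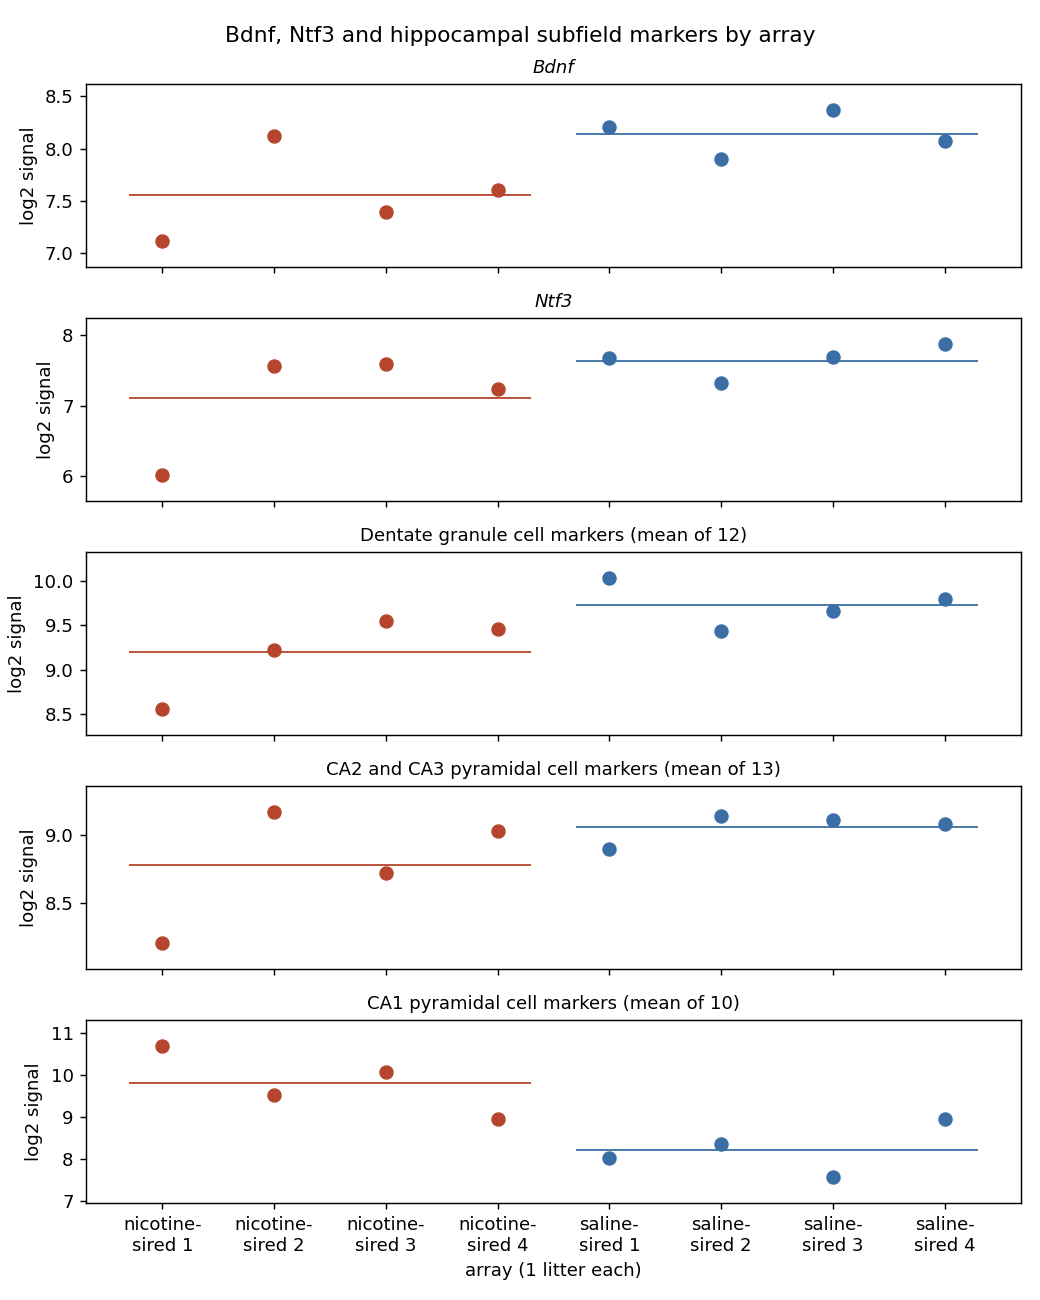
Log2 signal (vertical axes, own scale for each panel) of Bdnf, Ntf3 and the mean of the dentate, CA2 and CA3, and CA1 marker lists on each array (horizontal axis), with group means as lines. Nicotine-sired 1 has the lowest value in the upper 4 panels and the highest, 10.68, for CA1 markers.

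Markers of other cell types of the tissue were followed in the same way. Over all tested probe sets 54.3% had a higher mean in nicotine-sired sons and 2.06% were called. Astrocyte markers, beside Ntrk2, had means of 10.77 to 10.84 on nicotine-sired and 10.65 to 10.84 on saline-sired arrays, with 13 of 16 higher (median 0.10) and 0 called; Mlc1 differed by 0.20 ± 0.05 and S100b by 0.18 ± 0.05. All 19 oligodendrocyte and precursor markers had a higher mean (median 0.41), with list means of 10.22 to 10.60 against 9.93 to 10.27 on saline-sired arrays. Of these 2 were called, the precursor genes Gpr17 and Vcan, which rose by 0.51 ± 0.08 and 0.42 ± 0.08. Endothelial and pericyte markers had list means of 8.06 to 8.16 on nicotine-sired and 7.74 to 8.02 on saline-sired arrays, all 21 with a higher mean (median 0.25) and 1 called, Rgs5, which rose by 0.39 ± 0.07. Interneuron markers had list means of 9.02 to 9.14 on nicotine-sired and 8.90 to 9.22 on saline-sired arrays. In mean 10 of 15 were higher and 5 lower (median 0.12), while the 2 calls, Kcnc2 and Lamp5, fell by 0.61 ± 0.07 and 1.28 ± 0.26. All 13 microglial markers had a higher mean (median 0.25, 0 called), and 6 of 8 fibroblast markers did (median 0.31, or -0.011 without nicotine-sired 4), where Dcn again was the called one. The part of these cell types in the receptor values was not tested.

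By likeness over the 8 arrays, among 12317 other named genes, the profile nearest to Bdnf was that of Map3k5, which encodes the stress kinase ASK1 (Pearson r 0.98), followed by Mas1, a receptor of angiotensin 1-7 (r 0.969). Map3k5 read 6.49, 7.22, 6.76 and 6.95 on nicotine-sired arrays 1 to 4, against 7.24 to 7.51 on saline-sired arrays, so that its nicotine-sired arrays fall in the order of those of Bdnf. The nearest to Ntf3 were Tsr1 (r 0.972) and Dcbld2 (r 0.971), to Ntrk3 Clip4 (r 0.98) and Prok2 (r 0.976), and to Sort1 Ttll7 (r 0.977) and Gzf1 (r 0.975). Ntrk2 was nearest to Phf19 (r 0.955) and to Rfx4 (r 0.954), a transcription factor gene that astrocytes express. Ngfr had the least close neighbours, Slc2a4 (r 0.941), the insulin-responsive glucose transporter, and Lrrc41 (r 0.926). The highest of so many coefficients over 8 points is high in any case, and arrays share the group difference and their tissue makeup, so these are descriptions.

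Around the 6 genes, 142 genes of 5 lists of the pathway were followed, of which 130 were above the filter. Of these, 2 were called higher and 2 lower (3.08%, against 2.06% of all tested probe sets), and 42 of 130 reached an unadjusted p under 0.05 (32.3%, against 24%). Their median difference was 0.04, against 0.02 over all tested probe sets. The calls were Adam17, Pik3r1, Nptx1 and Jun.

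Of ligand processing and sortilin-family genes 13 of 18 measured were above the filter, 7 higher and 6 lower in mean, with 0 called (median 0.03). Sorcs1 and Sorcs3, sortilin relatives, read 9.11 to 9.59 and 8.63 to 9.78 on nicotine-sired arrays, against 8.71 to 9.16 and 8.30 to 8.81 on saline-sired ones. They differed by 0.45 ± 0.13 and 0.68 ± 0.22 (adjusted p = 0.0826 and 0.111 in limma). Pcsk5, a convertase that can cut neurotrophin precursors, differed by -0.65 ± 0.19 (adjusted p = 0.0899), and without nicotine-sired 2 by -0.80 (adjusted p = 0.0385). Sorcs3 passed without nicotine-sired 4 (0.89, adjusted p = 0.0268).

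Among p75 partners and effectors 1 of 17 was called, and the median was 0.04. Adam17, a sheddase that cuts p75 and other membrane proteins, read 8.48, 8.36, 8.38 and 8.50 on nicotine-sired arrays 1 to 4, against 7.67, 7.82, 8.11 and 8.07 on saline-sired arrays 1 to 4. All nicotine-sired arrays were above all saline-sired ones, and it rose by 0.51 ± 0.10 (adjusted p = 0.043). Bex3, a small protein that binds the p75 death domain, and Traf6, a p75 adaptor, differed by -0.16 ± 0.04 and 0.18 ± 0.06 without overlap of the groups, with adjusted p-values of 0.0883 and 0.141.

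Of the 49 Trk adaptors and kinases 24 had a higher and 25 a lower mean, and 1 was called. Pik3r1, the regulatory subunit p85 alpha of PI3 kinase, read 10.79, 10.59, 10.80 and 10.62 on nicotine-sired arrays 1 to 4, against 10.28, 10.30, 10.22 and 10.31 on saline-sired arrays 1 to 4. The groups lay well apart, and it rose by 0.42 ± 0.07 (adjusted p = 0.0275). Map2k1, the MAP kinase kinase MEK1, differed by -0.39 ± 0.09 (adjusted p = 0.0617 in limma), also without overlap. It passed without nicotine-sired 2 (-0.43, adjusted p = 0.0492) and without nicotine-sired 4 (-0.43, adjusted p = 0.0409). Its unadjusted p was 0.00199 with all arrays, and 0.00211 and 0.00152 in those fits, in that order. More probe sets were called over all in those fits, which makes the adjusted threshold easier to reach. Gab1, a docking protein of receptor kinases, differed by 0.56 ± 0.15 (adjusted p = 0.073), and by 0.69 without nicotine-sired 2 (adjusted p = 0.031).

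Regulators of Bdnf transcription were the most one-sided of the 5 pathway lists, though not of the marker lists, with 21 of 24 with a higher mean in nicotine-sired sons (54.3% of all tested probe sets had one), a median of 0.15 and 0 called. Usf1, an E-box factor, averaged 8.88 ± 0.11 on nicotine-sired and 8.59 ± 0.06 on saline-sired arrays (SD, n = 4 each), without overlap, and differed by 0.28 ± 0.07 (adjusted p = 0.0744). Rest, a repressor of neuronal genes, read 7.59 to 8.12 on nicotine-sired and 7.10 to 7.57 on saline-sired arrays and differed by 0.46 ± 0.14 (adjusted p = 0.0944). Nr3c1, the glucocorticoid receptor, differed by 0.38 ± 0.11 (adjusted p = 0.0856). Usf1 passed without nicotine-sired 4 (0.32, adjusted p = 0.0483) and Nr3c1 without nicotine-sired 2 (0.48, adjusted p = 0.0308). Some of these regulators are also expressed in glia, whose markers were higher in mean on the same arrays; their part was not tested.

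Genes listed as induced by BDNF and neuronal activity split. Whether each of them is so induced in this tissue was not tested. Of 27 above the filter 18 had a higher and 9 a lower mean (median 0.15), and both calls were lower. Nptx1, a secreted pentraxin of excitatory synapses, read 10.39, 11.07, 10.56 and 10.85 on nicotine-sired arrays 1 to 4, against 11.37, 11.57, 11.68 and 11.27 on saline-sired arrays 1 to 4. Every nicotine-sired array was below every saline-sired one, and it fell by 0.75 ± 0.15 (adjusted p = 0.0395). Jun, an immediate early transcription factor, read 9.42 to 9.71 on nicotine-sired and 9.94 to 10.27 on saline-sired arrays and fell by 0.46 ± 0.09 (adjusted p = 0.0427). Nr4a3, an orphan nuclear receptor induced by activity, differed by -0.41 ± 0.11 (adjusted p = 0.0811), and passed without nicotine-sired 2 (-0.51, adjusted p = 0.0333). At an unadjusted p under 0.05 in limma the list had 7 genes higher and 3 lower. Over all tested probe sets 24% reached that p, and 54.3% had a higher mean. Among the 7 higher genes, given after their values were seen, Nr4a1, a relative of Nr4a3, and Egr1, another immediate early transcription factor, differed by 0.78 ± 0.22 and 0.53 ± 0.19 without overlap of the groups (adjusted p = 0.0911 and 0.14 in limma), and Dusp1, a MAP kinase phosphatase, by 0.69 ± 0.21 with overlap (adjusted p = 0.102). Nr4a1, Egr1 and Dusp1 were each highest on nicotine-sired 1, at 10.84, 10.82 and 9.25. The next highest was nicotine-sired 2, at 10.22, 10.05 and 8.86.

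The 4 calls of the pathway lists kept their direction but not their side of the threshold. Adam17, Pik3r1, Nptx1 and Jun were each called without nicotine-sired 2 and without nicotine-sired 4, and none of them without any of the other 6 arrays. Without those 6 arrays their adjusted p-values lay between 0.0506 and 0.124, with differences of 0.43 to 0.57 for Adam17, 0.39 to 0.43 for Pik3r1, -0.82 to -0.64 for Nptx1 and -0.50 to -0.39 for Jun. Over all tested probe sets there were 313 calls with the 8 arrays, 0 without saline-sired 1 or 3, and 672 and 737 without nicotine-sired 2 and 4. With more calls over all the adjusted threshold is easier to reach. A gene's pass without nicotine-sired 2 or 4 can therefore rest partly on other probe sets.

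**Figure D4:**
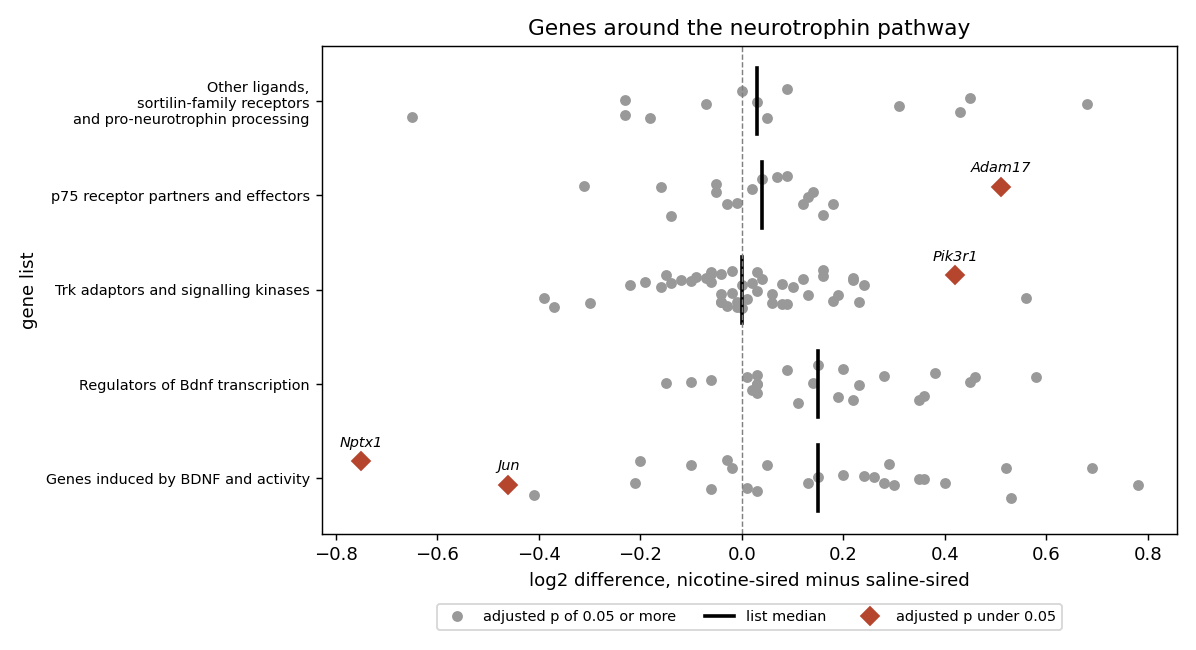
Log2 difference, nicotine-sired minus saline-sired (horizontal axis), of each gene above the filter in the 5 pathway lists (rows; points are spread vertically for legibility), with the list median as a black bar. Red diamonds are the 4 genes with an adjusted p under 0.05, and the bar of the regulators of Bdnf transcription stands at 0.15.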

How the data were processed

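Expression was measured in dorsal hippocampal punches on 8 Affymetrix arrays, 4 per group, grouped by array title. The deposited values are log2 signals; MAS5 (version not given) is the tool per the submitters' processing notes, and summary, normalization and array model were not stated. The authors' deposited table also gives, per the file headers, a p-value, its step-up adjustment and a linear ratio of nicotine over saline. The value table and the authors' deposited table agree exactly (largest difference 0).

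From these values, control classes (6362 probe sets) were left out, dim probe sets were filtered by the median, and groups were compared with limma 3.58.1 in R 4.3.3 (lmFit, eBayes with a trend, two-sided). The script was tested on simulated data. Intervals are 95%; the number of arrays limits precision. List genes were named by RefSeq gene ID where 1 symbol was annotated, with the highest mean probe set. Named were the 6 genes, the 3 smallest p and all calls per pathway list, the 2 smallest p per marker list, and the 2 nearest profiles per gene; Ntf4 was added, with values seen, as the other TrkB ligand. Members and lists were chosen with earlier results of these data known. The labels do not say whether equal litter numbers mark yoked fathers, and the main fit did not pair arrays. Deviations of same-numbered arrays correlated at -0.14, 0.18, -0.05 and -0.17. So few values, from groups this small, cannot decide whether the arrays were paired.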

Additional observations from a re-analysis of the deposited data

Results flagged for a closer look

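Of 66 groups of 4 arrays examined (33 named genes in both groups), 5 held an array whose distance to the nearest of the others took up more of the group's range than chance usually gives, where about 1 in 20 would by chance. All 5 were saline-sired and none was one of the 6 neurotrophin and receptor genes. On saline-sired 1, Bex3 read 10.76 (others 10.71 to 10.72), Clip4 8.64 (others 8.38 to 8.41) and Prok2 6.74 (others 6.34 to 6.36). On saline-sired 3, Gab1 read 9.74 (others 9.25 to 9.30) and Map3k5 7.51 (others 7.24 to 7.28). Clip4 and Prok2 were picked for their likeness to Ntrk3, which is highest on saline-sired 1, so they are not independent of it. Map3k5 was likewise picked for its likeness to Bdnf, which is highest on saline-sired 3.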

How the results depend on the processing

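Under 99 combinations of gene and alternative 0 of the differences of the 6 genes changed sign. The alternatives were filters, quantile normalization, median centring, litter number as a block, array weights, no trend and a pseudocount of 16. The authors' p-values and each array left out were also tried. In some of these the sign could not change. Filters, no trend, the balanced block and the authors' p-values leave the difference as it is. With the stricter filter Bdnf, Ntf3 and Ngfr were not tested; no gene had another probe set to try. Bdnf came to pass with the authors' deposited p-value (difference -0.58, adjusted p-value 0.0491) and without nicotine-sired 2; its range with 1 array left out was -0.77 to -0.43. The cause was not tested. With array weights Ntf3 was -0.32 and Ntrk3 -0.11 (unadjusted p 0.152). Median centring moved Ntrk2 to 0.066 and Sort1 to 0.067. With litter number as a replicate block the adjusted p-values of the 6 genes ran up from 0.2 (Ntrk2) and 0.202 (Bdnf). With that block 0 probe sets were called over all (0 in every pathway list), against 313 without it. Whether numbers shared by the groups pair these arrays is not known.

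Counts of calls in the pathway lists, by main setting, array weights and range with 1 array left out, were 0, 2 and 0 to 1 for ligand processing, 1, 3 and 0 to 1 for p75 partners, 1, 3 and 0 to 4 for Trk adaptors, 0, 3 and 0 to 1 for Bdnf regulators, and 2, 6 and 0 to 5 for induced genes. Over all 15161 tested probe sets the calls in these settings were 313, 1201 and 0 to 737. The higher list counts therefore came with more calls over all. Without the filter p75 partners and induced genes had 0, with the stricter filter p75 partners had 0, since Adam17 was then not tested, and without a trend induced genes had 1. Of 422 values of the 27 other named genes, 0 changed direction, 32 lost and 18 gained a call. The filters, no trend and the block again could not change a direction.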

Other observations

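The 6 genes were also set against each other within an array, a measure chosen after the values were seen and given with no test. Of the 15 pairs, 2 had groups that did not overlap (13.3%), a share near the 14.3% of single tested probe sets. The log2 signal of Ntrk2 minus that of Ntrk3 was 0.97 to 1.24 on nicotine-sired and 0.60 to 0.94 on saline-sired arrays. That of Ntrk3 minus Sort1 was -1.98 to -1.62 on nicotine-sired and -1.61 to -1.14 on saline-sired arrays. Such a difference removes a shift common to an array but has no meaning as a level.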
